A study of Mus musculus with 8 samples.

Results

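Cytosolic ribosomal protein genes were described in the outer kidney cortex of mice on a control or a high fat diet. Members were the rows of the deposited count table whose gene symbol starts with Rpl or Rps and a digit, or is Rplp0, Rplp1, Rplp2 or Rpsa, without the Rps6k kinase genes and without symbols that end in -ps (pseudogenes). This rule took 86 of 23504 rows. They were 31 small subunit genes, 43 large subunit genes, 3 genes of the P stalk, 8 paralogs or variants of a ribosomal protein, and Rps19bp1, which shares the symbol but encodes a protein that binds a ribosomal protein. All mice were wild type C57Bl6/J, started their diet at 6 weeks of age and stayed on it for 9 weeks, to an age of 15 weeks. The stated purpose was to find genes expressed differently between the diets. Each diet had 4 libraries, named here by the letter in their label (high fat A, B, F and G, and control I, J, L and M). The libraries were made with a kit that removes ribosomal RNA, although the labels also call the material enriched mRNA. The composition of the diets and the sex of the mice are not stated, every title carries an unexplained M, and whether every library is a mouse of its own is not said. The p-values therefore measure the spread between these libraries, which may be technical.

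The cytosolic ribosome joins a small subunit, which reads the mRNA, to a large subunit, which forms peptide bonds and holds the tunnel through which the new protein leaves. Each ribosomal protein is needed in about equal number, and cells match their output through a shared feature of the mRNAs, a run of pyrimidines at the very start called a TOP motif, through which mTORC1 sets their translation. Proximal tubule cells, the main cell type of the renal cortex, carry many transporters and reabsorb most of what the glomerulus filters.

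Total expected counts ran from 23503593 to 30781585 per library. The 45S ribosomal RNA precursor Rn45s took 1.23% to 13.3% of counts in 7 libraries and 50.3% in control J, which was left with 13993652 counts for all other genes, against 21793784 to 30403685 in the others. Rn45s was removed before any scaling, and levels are counts per 1000000 of the rest, scaled with TMM factors (CPM). The 6 proximal tubule markers summed to between 20112 and 21877 CPM in every library, although single markers went both ways: Cubn and Aqp1 were called lower on the high fat diet and Slc34a1 higher, with log2 changes of -0.26, -0.22 and 0.33 in edgeR. The adrenal enzyme genes Cyp11b1 and Cyp11b2 were at 0 in all 8.

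Most ribosomal protein genes had a fitted level slightly lower on the high fat diet, and for most of them the difference did not pass the test. Of the 84 members with enough counts to be tested, 82 had a fitted log2 change below 0, where 50.5% of all 14711 tested genes did. Their median log2 change was -0.19, a level 12.2% lower, with quartiles of -0.23 and -0.14, against a median of -0.0023 over all tested genes. In edgeR's quasi-likelihood test 16 members fell, 68 did not pass and none rose at a Benjamini-Hochberg adjusted p under 0.05, beside 5.13% of all tested genes called lower and 4.86% called higher. An unadjusted p under 0.05 was reached by 60 members, all lower and none higher, beside 14.1% of tested genes lower and 13.3% higher. In 24 members all 4 high fat libraries lay below all 4 control libraries, a separation shown in that direction by 9.18% of tested genes, and in no member did they lie above, as in 8.29% of tested genes. The count depended on single libraries: 1 member was called lower without high fat F (2.15% of all tested genes were), 2 without control I (2.45%), 3 without high fat G (2.73%), 5 without control J (2.55%) or control L (3.26%), 10 without high fat A (2.9%), 22 without high fat B (3.83%) and 33 without control M (5.2%). The median log2 change lay between -0.22 and -0.16 in these fits. With both control J and high fat G left out, no member was called in edgeR (1.17% of tested genes were called lower), 29 had an unadjusted p under 0.05, all lower, and the median was -0.15. DESeq2 called 29 members lower (6.02%), edgeR 39 at an adjusted p under 0.1 (9.01%) and 0 under 0.01 (1.01%), and limma 0 on log2(FPKM + 0.1) or log2(FPKM + 1) as deposited (0.205% and 0.243% of genes called lower, with no member at an unadjusted p under 0.05), a scaling that keeps Rn45s. On that FPKM scale 61 members were below 0 and the median was -0.036, beside 0.14 over all genes with the smaller pseudocount. With the same FPKM rescaled to TMM-scaled library sizes without Rn45s, an alternative added after seeing the data, limma on log2(FPKM + 0.1) called 14 members lower (5.73%), 82 were below 0 and the median was -0.19. In edgeR with Rn45s kept in the library sizes and TMM factors applied, 16 members were called lower and 82 were below 0. The median in that fit was -0.19, and 1468 of 14710 tested genes were called in either direction. The parts of Rn45s and of TMM scaling in the FPKM results were not tested apart. In bulk tissue, fewer cells of a type and less RNA per cell cannot be told apart.

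**Figure D1:**
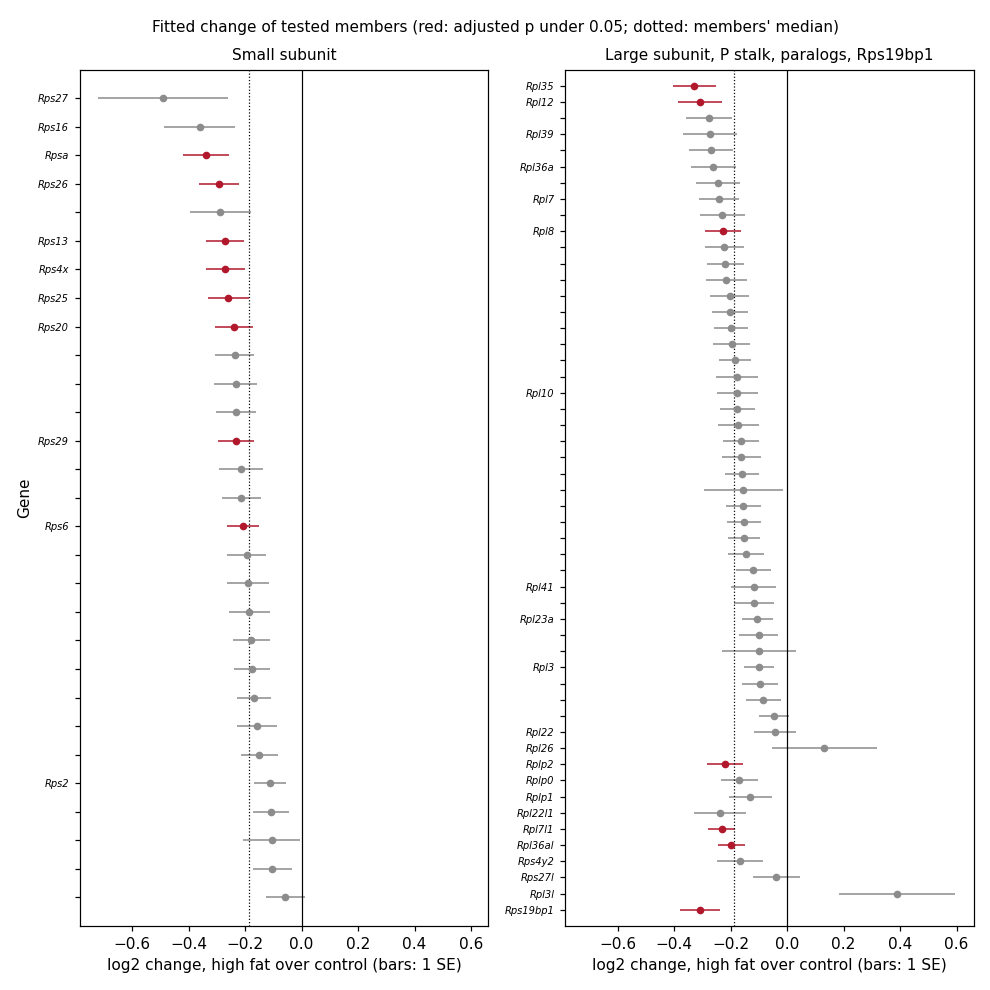
Fitted log2 change (high fat over control, horizontal axis) of 81 of the 84 tested genes, some of them labelled, with bars of 1 standard error, in red where the adjusted p in edgeR was under 0.05. Nearly all points lie left of 0 and near the dotted line at the median of -0.19, and Rpl26 and Rpl3l are the 2 to the right of 0.

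The starts of the genes were compared in RefSeq promoter windows (GRCm38.p6) for a TOP-like start. This was taken as an unbroken run of at least 5 letters C or T that opens with C. Its first base had to lie within 3 bases of the RefSeq start. Only the strand that reads as the RNA was searched, and no other motif was searched. A window was found for 65 of the 86 members, and 25 of them (38.5%) held such a run. Counted over windows, since a gene can have several, 26 of 77 member windows (33.8%) held it, against 3792 of 32851 windows of all genes (11.5%). Members with the run had a median log2 change of -0.20 (4 of 25 tested were called lower), and those without it -0.18 (8 of 38). Among all tested genes 5.13% were called lower in edgeR. The windows below run from 10 bases before the start to 20 bases from it, 5′ to 3′, and capitals mark the run. The first 4 are called members with the run, and Rpl7l1 and Rps19bp1 are called members without it.
Rpl35: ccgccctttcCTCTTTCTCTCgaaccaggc
Rps6: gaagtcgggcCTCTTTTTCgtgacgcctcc
Rplp2: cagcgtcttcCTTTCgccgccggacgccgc
Rpl12: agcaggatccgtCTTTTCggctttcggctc
Rpl7l1: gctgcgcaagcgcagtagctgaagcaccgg
Rps19bp1: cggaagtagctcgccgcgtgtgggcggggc
These windows lie at chr2:39005112-39005141 (minus strand, Rpl35), chr4:86857348-86857377 (minus strand, Rps6), chr7:141447641-141447670 (plus strand, Rplp2), chr2:32961702-32961731 (plus strand, Rpl12), chr17:46782637-46782666 (minus strand, Rpl7l1) and chr15:80264287-80264316 (minus strand, Rps19bp1). A match is a description of the letters at an annotated start, which need not be the start used in kidney. A window without the run therefore need not mean an mRNA without a TOP motif. Whether members with and without the run differed in log2 change was not tested.

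In edgeR 9 of the 31 small subunit genes fell, 22 did not pass and none rose. Of all tested genes, 5.13% were called lower and 4.86% higher. All 31 small subunit genes had a log2 change below 0, with a median of -0.21. Rpsa (chromosome 9, 120127689 to 120132369), whose product is also known as the laminin receptor, was at 400.5, 415, 360.3 and 370.2 CPM in high fat A, B, F and G and at 483, 563, 476 and 435 CPM in control I, J, L and M. Control J was the highest and high fat F the lowest, the diets did not overlap, and the fall of 0.34 ± 0.080 (SE) on the log2 scale had adjusted p = 0.0254 in edgeR. The call of Rpsa held in 5 of the 8 fits that left out a library. Rps26 (chromosome 10, 128624534 to 128626747), a protein at the channel where mRNA leaves the small subunit, was at 86.6, 94.8, 84.9 and 86.7 CPM on the high fat diet and 105, 123, 103 and 101 CPM on the control diet. Its diets did not overlap, control J stood above the other 3 control libraries, and it fell by 0.29 ± 0.070 (SE) with adjusted p = 0.0270 in edgeR. Without control J the log2 change of Rps26 was -0.22, and its call held in 4 of the 8 fits.

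Rps6 (chromosome 4, 86854660 to 86857412), the subunit protein phosphorylated by S6 kinase downstream of mTORC1, was at 303, 311, 283 and 285 CPM in high fat A, B, F and G and 335, 359, 348 and 322 CPM in control I, J, L and M. The diets did not overlap, high fat F and G were the lowest pair, and Rps6 fell by 0.21 ± 0.056 (SE) on the log2 scale with adjusted p = 0.0412 in edgeR, a call that 2 of the 8 fits without a library kept. Rps4x (chromosome X, 102184941 to 102189394), an X-linked gene, was at 252, 258, 219.7 and 225 CPM on the high fat diet and 294, 292, 301 and 262 CPM on the control diet. Rps13, a small subunit gene, was at 119, 117, 105 and 107 CPM and 136, 142, 143 and 120.2 CPM in the same order of libraries. Neither overlapped between the diets, although control M stood nearest to the high fat libraries in both, and they fell by 0.27 each with adjusted p = 0.0332 for Rps4x and 0.0317 for Rps13 in edgeR. Rps25, known for its role in initiation at internal entry sites, was at 175, 172, 148 and 149 CPM on the high fat diet and 196, 201, 199 and 176 CPM on the control diet. Control M of Rps25 lay just above high fat A, so the separation is narrow, and the fall of 0.26 had adjusted p = 0.0442 in edgeR. Rps29 was called with a log2 change of -0.23 (adjusted p = 0.0442 in edgeR) and Rps20 with -0.24 (adjusted p = 0.0450 in edgeR). Rps20 overlapped between the diets, since control M at 137 CPM lay below high fat A, while the other 3 control libraries lay between 155 and 158 CPM. Rps29 and Rps20 kept their call in 1 of 8 fits without a library each, and Rps13, Rps25 and Rps4x in 3.

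Among small subunit genes that did not pass, Rps16 had one of the 4 lowest log2 changes of all members, -0.36 ± 0.13 (SE; adjusted p = 0.0913 in edgeR). It was at 60.9, 73.2, 72.6 and 74.3 CPM in high fat A, B, F and G and 76.2, 119, 84.6 and 82.5 CPM in control I, J, L and M. High fat A was the lowest and control J the highest by a wide margin, and the remaining 6 libraries lay between 72.6 and 84.6 CPM. The log2 change nearest to 0 in the small subunit was -0.057, that of Rps14 (adjusted p = 0.631 in edgeR), named after its value was seen.

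In edgeR 3 of the 43 large subunit genes fell, 40 did not pass and none rose. The share of all tested genes called was 5.13% lower and 4.86% higher. A log2 change below 0 was seen in 42 of the 43, and their median was -0.17. Rpl35 (chromosome 2, 39001580 to 39005624), a protein beside the exit of the tunnel, was at 124, 126, 108 and 112 CPM in high fat A, B, F and G and 150.4, 154, 157 and 128 CPM in control I, J, L and M. Control M was the nearest to the high fat libraries without overlap, and Rpl35 fell by 0.33 ± 0.076 (SE) on the log2 scale with adjusted p = 0.0229 in edgeR, and 3 of the 8 fits without a library kept the call. Rpl12 (chromosome 2, 32961559 to 32965345), which sits at the base of the stalk, was at 152, 159, 141 and 147 CPM on the high fat diet and 189.8, 207, 188 and 158 CPM on the control diet. High fat B lay above control M by about 1 CPM, so the diets overlapped, and the fall of 0.31 ± 0.078 (SE) had adjusted p = 0.0326 in edgeR and was called in 2 of the 8 fits. Rpl8, a protein close to the peptidyl transferase centre, fell by 0.23 with adjusted p = 0.0447 in edgeR and no overlap of the diets, from 323 to 374 CPM on the control diet to 272 to 305 CPM on the high fat diet, and 2 of the 8 fits kept the call. Whether the subunits differed from each other was not tested, since their genes vary together across the same libraries.

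The P stalk recruits elongation factors to the large subunit through Rplp0 and the acidic proteins Rplp1 and Rplp2. Rplp2 (chromosome 7, 141447370 to 141451585) was at 124, 115, 102 and 119 CPM in high fat A, B, F and G and 132, 134, 139 and 131 CPM in control I, J, L and M. Its diets did not overlap, and it fell by 0.22 ± 0.062 (SE) on the log2 scale with adjusted p = 0.0479 in edgeR, kept in 1 of 8 fits without a library. Rplp0 was at 585, 606, 540.0 and 563 CPM on the high fat diet and 637, 708, 642 and 594 CPM on the control diet, with a log2 change of -0.17 ± 0.065 (SE; adjusted p = 0.120 in edgeR). Rplp1 had -0.13 ± 0.076 (SE; adjusted p = 0.299 in edgeR). Rplp0 and Rplp1 overlapped between the diets, and a difference between the 3 stalk genes was not tested.

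Of the 8 paralogs and variants, 6 were tested, of which 2 fell in edgeR, 4 did not pass and none rose. Over all tested genes, 5.13% were called lower and 4.86% higher. Rpl7l1 (chromosome 17, 46773907 to 46782672), a paralog of Rpl7 that acts in assembly of the large subunit, had the smallest p of all members. It was at 69.2, 68.2, 68.2 and 66.9 CPM in high fat A, B, F and G and 78.0, 80.5, 77.9 and 83.5 CPM in control I, J, L and M. The high fat libraries lay within a narrow band below all control libraries, control M was the highest, and Rpl7l1 fell by 0.23 ± 0.048 (SE) on the log2 scale with adjusted p = 0.0149 in edgeR. It was the only member called in all 8 fits that left out 1 library, but the call was lost with control J and high fat G both left out (adjusted p = 0.0845 in edgeR) and with TMM factors from transcripts under 1500 bases. Its parent Rpl7 had the log2 change -0.24 ± 0.070 (SE; adjusted p = 0.0516 in edgeR) without passing. Rpl36al (chromosome 12, 69182731 to 69184083), a paralog of Rpl36a, was at 99.5, 97.6, 91.1 and 93.3 CPM on the high fat diet and 110.3, 109.5, 109 and 108 CPM on the control diet. The 4 control values of Rpl36al were close together and above every high fat value, and it fell by 0.20 ± 0.048 (SE) with adjusted p = 0.0283 in edgeR. The call of Rpl36al held in 3 of 8 fits without a library, and with the length trend removed it was lost (adjusted p = 0.167 in edgeR). Rpl36a itself had -0.26 ± 0.079 (SE; adjusted p = 0.0592 in edgeR).

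Rpl3l, the paralog of Rpl3 known from heart and skeletal muscle, had the highest log2 change of the members, 0.39 ± 0.20 (SE; adjusted p = 0.247 in edgeR). It rested on 348 counts in all 8 libraries, at 1.67, 2.28, 2.09 and 2.32 CPM in high fat A, B, F and G and 1.60, 2.33, 1.13 and 1.61 CPM in control I, J, L and M. Control J was the highest library, and the diets overlapped. The 5 muscle markers summed to between 0.162 and 0.271 CPM on the high fat diet and between 0.106 and 0.768 CPM on the control diet, and none of the 5 had enough counts to be tested. Rpl3 had a log2 change of -0.10 ± 0.053 (SE; adjusted p = 0.259 in edgeR). Rps27l, a paralog of Rps27 induced by p53, was at 83.3, 78.8, 70.6 and 69.1 CPM and 82.7, 74.1, 84.4 and 68.5 CPM in the same order of libraries, with a log2 change of -0.039 ± 0.083 (SE; adjusted p = 0.802 in edgeR). Its diets overlapped over almost their whole range. Rpl22l1 had -0.24 (adjusted p = 0.127 in edgeR) and its parent Rpl22 -0.043 (adjusted p = 0.758 in edgeR). Rps4y2, which RefSeq names Rps4l, had -0.17 (adjusted p = 0.214 in edgeR). Rpl10l and Rpl39l, paralogs of Rpl10 and Rpl39 known from testis, held 3 and 4 counts in all 8 libraries together and were not tested, while Rpl10 had -0.18 (adjusted p = 0.145 in edgeR) and Rpl39 -0.27 (adjusted p = 0.0975 in edgeR).

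Rps19bp1 (chromosome 15, 80260615 to 80264315), whose product binds Rps19 and is known as a regulator of the deacetylase SIRT1, is no ribosomal protein and served as a symbol match only. It was at 9.98, 10.6, 10.3 and 10.8 CPM in high fat A, B, F and G and 13.3, 12.3, 12.7 and 13.2 CPM in control I, J, L and M, without overlap. It fell by 0.31 ± 0.071 (SE) on the log2 scale with adjusted p = 0.0218 in edgeR, so 15 of the 16 called members encode a ribosomal protein or a paralog of one. The call of Rps19bp1 held in 5 of 8 fits without a library. With the length trend removed it was lost (adjusted p = 0.0693 in edgeR). So it was with TMM factors from transcripts under 1500 bases (adjusted p = 0.0663 in edgeR) and with control J and high fat G both left out (adjusted p = 0.0640 in edgeR).

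The members also differed between libraries of the same diet. Taking each gene's log2 CPM relative to its own mean over the 8 libraries, the median member was at -0.044 in high fat A, 0.0088 in high fat B, -0.19 in high fat F and -0.14 in high fat G. It was at 0.11 in control I, 0.18 in control J, 0.10 in control L and -0.0067 in control M. High fat B thus lay above control M, and the diets overlapped on this measure. High fat F held the lowest value of 66 of the 84 members and high fat G that of 10, while control J held the highest value of 52, control L of 17 and control I of 11. The medians were -0.092 ± 0.092 on the high fat diet and 0.096 ± 0.076 on the control diet (SD, n = 4 each). As a share of all counts without Rn45s, the 86 members made up 1.63% ± 0.0841 on the high fat diet and 1.86% ± 0.0657 on the control diet (SD, n = 4 each). That share ran from 1.54% (high fat F) to 1.73% (high fat B) and from 1.801% (control M) to 1.93% (control L), without overlap. The summed CPM after TMM scaling did overlap, with 17542 in high fat B above 17290 in control M. In control J, the highest library by CPM, the share was 1.81%, below control I at 1.91% and control L. The TMM factor of control J was 0.919, against 0.985 to 1.042 in the other libraries, and a lower factor raises CPM.

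**Figure D2:**
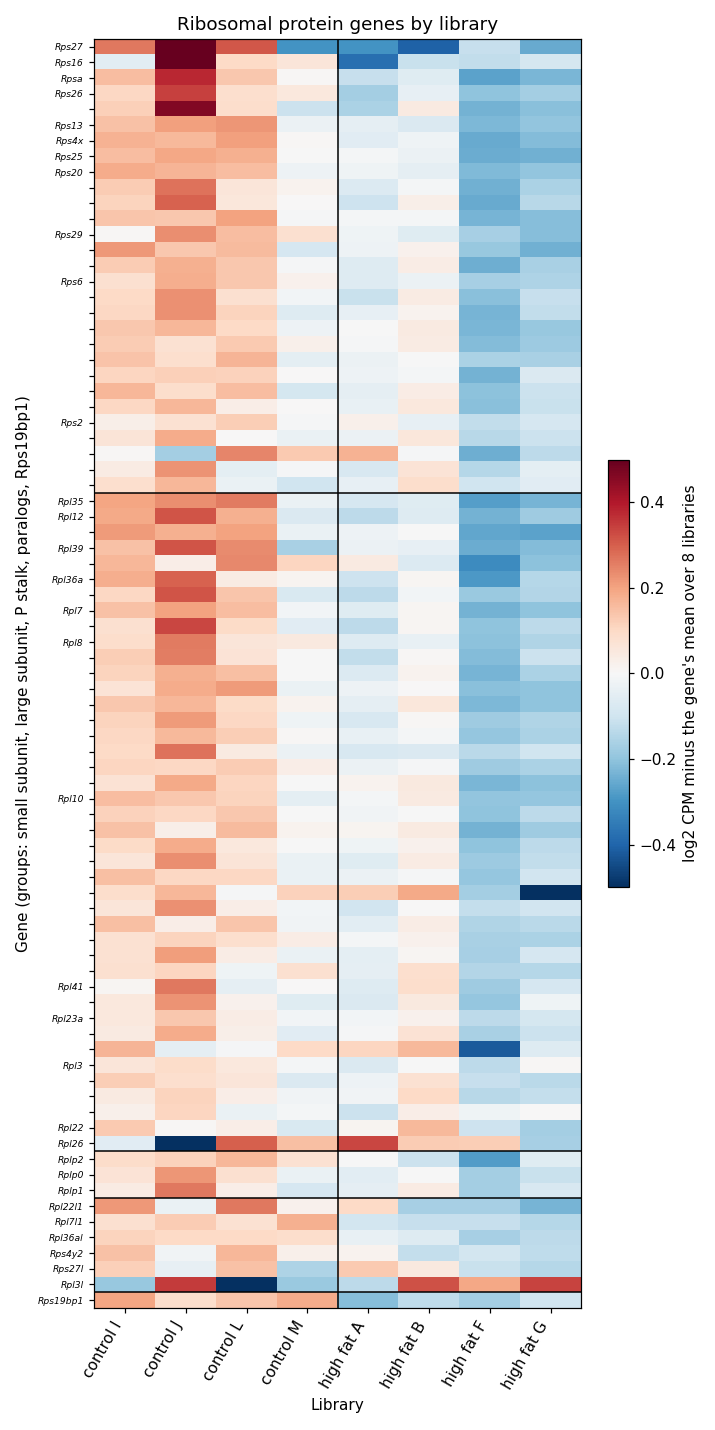
Log2 CPM of 81 of the 84 tested genes (some of them labelled) minus each gene's mean over the 8 libraries (colour), with genes in rows by class and libraries in columns, controls to the left of the line. Most rows are red in control I, J and L and blue in high fat F and G, and pale in control M and high fat A and B.

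Of the 4 markers of the loop of Henle and distal nephron, Slc12a1 was called lower (log2 change -0.53, adjusted p = 0.0118 in edgeR), beside 5.13% of all tested genes. Umod, Aqp2 and Slc12a3 did not pass, with log2 changes of -0.17, -0.27 and 0.046. The sum of the 4 ran from 3603 to 4277 CPM on the high fat diet and from 4257 to 4748 CPM on the control diet, with overlap. The 5 red cell markers summed to between 413 and 2300 CPM on the high fat diet and between 373 and 871 CPM on the control diet, and the 7 leukocyte markers to between 35.8 and 48.5 CPM and between 23.5 and 42.1 CPM. The 5 adipocyte markers summed to at most 1.45 CPM in any library. The part of these cell types in the change of the ribosomal protein genes was not tested.

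Most ribosomal protein transcripts are short, and short transcripts as a whole had a median log2 change slightly below 0. The median effective transcript length, recovered from the deposited counts and FPKM, was 653 bases over the tested members and 2729 bases over all tested genes, and 67 members were under 1000 bases. These 67 had a median log2 change of -0.20, and 66 of them were below 0. Among the 1177 other tested genes under 1000 bases the median was -0.056, 62.2% were below 0 and 63 (5.35%) were called lower. Across the 84 members, Spearman's rho of log2 change with length was 0.053, beside 0.16 across all tested genes, which share the same libraries and are not replicates. The members' median was -0.20 under 500 bases (25 genes), -0.19 from 500 to 700 bases (24 genes), -0.18 from 700 to 1000 bases (18 genes) and -0.17 from 1000 to 1500 bases (9 genes), against -0.044, -0.053, -0.060 and -0.037 in the other genes of the same ranges. With the trend of counts on transcript length removed in each library, 8 members were called lower in edgeR (5.14% of all tested genes were), 78 were below 0 and the median was -0.12. The calls lost in that fit were those of Rps6, Rps20, Rps26, Rps29, Rpl8, Rplp2, Rpl36al and Rps19bp1. With TMM factors taken only from transcripts under 1500 bases, 7 members were called lower (beside 2.53% of tested genes), 77 were below 0 and the median was -0.13, while the median of all tested genes stood at 0.057.

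**Figure D3:**
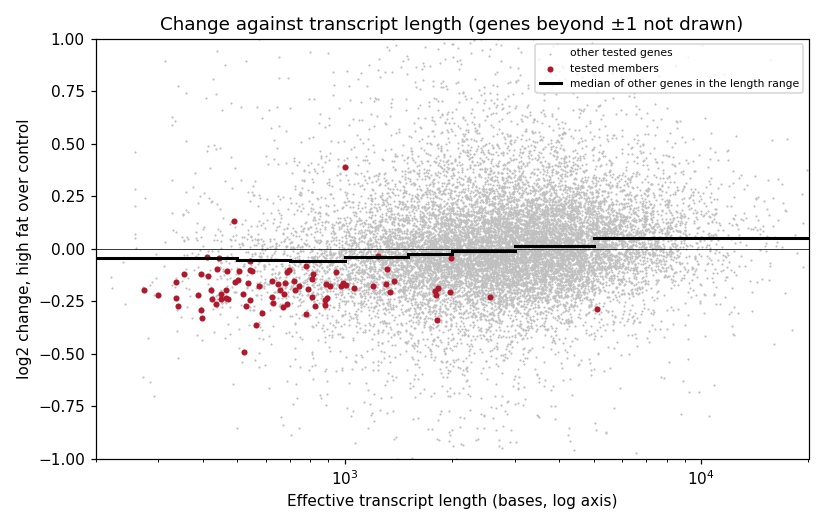
Fitted log2 change (high fat over control) against effective transcript length in bases on a log axis, with ribosomal protein genes in red, other tested genes in grey and the black steps at the median of the other genes in each length range. Under 2000 bases, where nearly all red points fall, most lie below the black steps, with a median of -0.20 under 500 bases where the steps are at -0.044.

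By library, the other short genes had medians nearer to 0 than the members in 6 of the 8 libraries, high fat B and control M being the exceptions. The measures were not the same. For the other short genes a small constant was added to CPM before the log, which draws genes of low CPM towards 0, and for the members none was. The median of the other short genes relative to each gene's mean was -0.0010 in high fat A, 0.023 in B, -0.075 in F and -0.057 in G, and 0.037 in control I, 0.066 in J, 0.051 in L and -0.034 in M. High fat F was the lowest and control J the highest for these genes, as for the ribosomal protein genes, whose medians in those libraries were -0.19 and 0.18. The part of transcript length or RNA quality in the members' change was otherwise not tested.

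**Figure D4:**
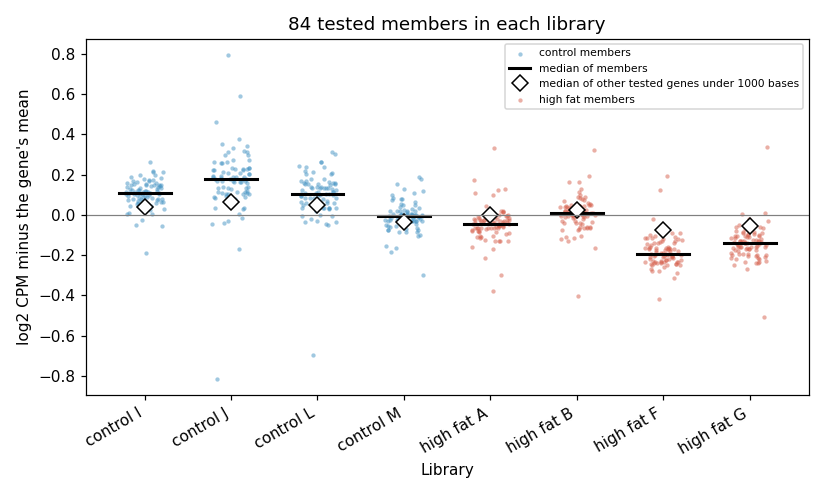
Log2 CPM minus the gene's mean for the 84 tested ribosomal protein genes (points) in each library, with their median (bar) and the median of 1177 other tested genes under 1000 bases (diamond). A small constant was added to the CPM of the other genes before the log, and not to that of the members. The bars run from -0.19 in high fat F to 0.18 in control J, and the diamonds from -0.075 to 0.066 in the same libraries.

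Levels of different genes were compared per transcript length, as FPKM rescaled to library sizes without Rn45s. Rpl41, which encodes the smallest ribosomal protein, was the highest at 1090 ± 98.3 rescaled FPKM (SD over all 8 libraries, as for the levels that follow). Rps2 followed at 704 ± 40.3, then Rpl10, which completes the large subunit late in assembly, at 613 ± 58.6. Rplp1 at 547 ± 49.4 and Rpl23a, beside the tunnel exit, at 546 ± 30.6 were also among the highest. Rplp1 and Rpl23a lay within their spread of each other, while Rpl41 stood above Rps2 by more than either spread. The 77 genes of the small subunit, large subunit and stalk had a median of 299, with quartiles of 237 and 397, and 70 of them lay between 100 and 1000 rescaled FPKM. None of these 5 genes passed the test between the diets. Over the tested members, log2 change and mean CPM had a Spearman's rho of 0.13 across genes, as a description. The lowest detected members were Rpl10l at 0.0215, Rpl39l at 0.0345 and Rpl3l at 1.88 rescaled FPKM.

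Of the 5 core genes under 50 rescaled FPKM, 4 had a near copy elsewhere in the table that held most of the counts: Rps27 at 1.997, Rpl34 at 9.58, Rpl30 at 15.7 and Rpl26 at 29.9. The fifth, Rps15a at 23.9, had an effective length of 5095 bases and 22760 counts and no such copy. A near copy was a row whose GENCODE M21 transcript matched at least 95% of bases over at least 60% of the member's shortest coding transcript and at least 150 bases, the 60% being chosen after values were seen. Rps27 held 192 counts in all 8 libraries together and Gm9846, on chromosome 9, which RefSeq names Rps27rt and whose transcript was identical to that of Rps27 over 98.8% of its length, held 28989, or 151-fold more. Rpl26 held 2885 counts and Gm15772, a transcribed pseudogene on chromosome 5 with 99.5% identity, 49069, or 17.0-fold more. Rpl34 held 995 counts and Rpl34-ps1 18360 (18.5-fold, 99.4% identity), and Rpl30 held 1470 counts and Gm12191 22223 (15.1-fold, 99.7% identity). How reads were shared within each pair by the authors' counting cannot be told from the counts, so the values of these 4 members are uncertain.

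The 2 largest departures among the core genes came from such pairs. Rps27 had the lowest log2 change, -0.49 ± 0.23 (SE; adjusted p = 0.195 in edgeR), at 0.815, 0.759, 0.925 and 0.842 CPM in high fat A, B, F and G and 1.202, 1.74, 1.24 and 0.816 CPM in control I, J, L and M. Control M fell among the high fat libraries. Added to Gm9846, the pair stood at 148, 156, 131 and 136 CPM on the high fat diet and 171, 190.1, 162 and 144 CPM on the control diet, with a log2 change of -0.22 (adjusted p = 0.121 in edgeR). Rpl26 was the only core gene above 0, at 0.13 ± 0.19 (SE; adjusted p = 0.694 in edgeR), with 18.0, 15.6, 15.6 and 12.7 CPM on the high fat diet and 13.8, 8.12, 17.6 and 15.9 CPM on the control diet, lowest in control J. Added to Gm15772, its log2 change was -0.16 (adjusted p = 0.166 in edgeR). Rpl34 went from -0.10 to -0.18 (adjusted p = 0.150 in edgeR) with its copy. Rpl30 went from -0.16 to -0.21 and passed, with adjusted p = 0.0474 in edgeR, a value near that of Gm12191 alone (adjusted p = 0.0447). With the near copies added, 17 members were called lower (5.13% of tested genes were) and 83 of 84 were below 0.

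**Figure D5:**
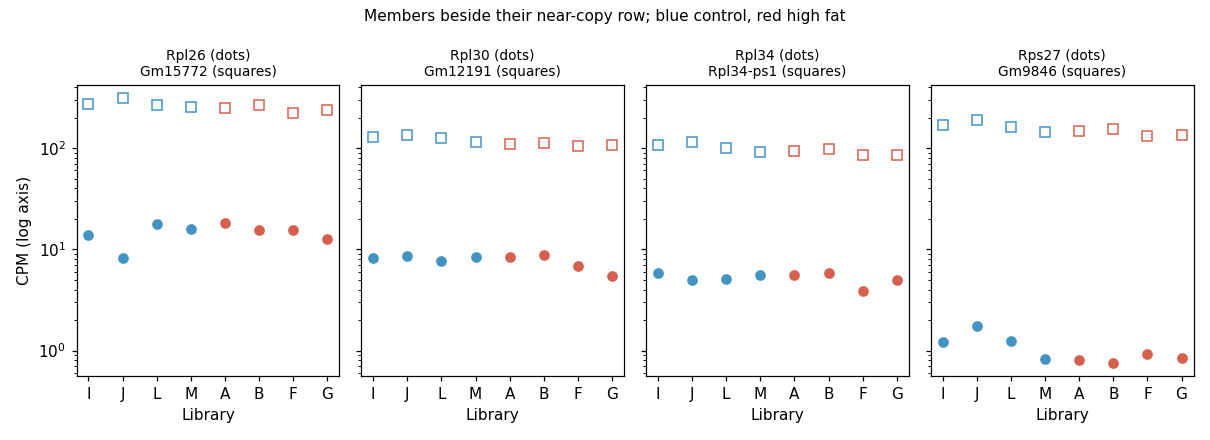
CPM on a log axis of Rpl26, Rpl30, Rpl34 and Rps27 (dots) and of their near-copy rows (squares) in each library, control in blue and high fat in red. The squares lie more than 10 times above the dots, and Rps27 stays under 2 CPM in every library.

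The authors deposited 2 tables of their own comparison, each listing genes with a posterior probability of equal expression under 0.05. The authors' deposited table by gene symbol listed 7 of the 86 members and 1133 genes in all, where the count table had 23504 rows. All 7 were lower on the high fat diet, as were 52.3% of the genes listed. In that deposited table by gene symbol, the authors' folds (high fat over control) included 0.82 for Rps26, 0.85 for Rpl7l1, 0.86 for Rplp2, 0.87 for Rps6, 0.87 for Rpl36al and 0.88 for Rpl27a. Of these, Rpl27a was not called in edgeR here and the others were. The authors' deposited table by Ensembl gene listed 7 members among 1175 genes, 6 lower and Rps27 at a fold of 2.67. In that authors' deposited table, FPKM of Rps27 was 84.3, 91.9, 79.6 and 105 in high fat A, B, F and G and 54.2, 0, 48.6 and 36.4 in control I, J, L and M. The authors' deposited FPKM of Rps27 by gene symbol were 1.24 to 2.42 in the same libraries. The direction for Rps27 therefore differed between the deposited tables, and its value at 0 in control J came from the Ensembl table alone.

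Ribosomal proteins under other symbols showed no call in edgeR. Fau, which encodes a ubiquitin-like fusion with Rps30, had a log2 change of -0.080 ± 0.055 (SE; adjusted p = 0.381 in edgeR). Gnb2l1, now Rack1, a signalling scaffold on the small subunit, had -0.20 ± 0.072 (SE; adjusted p = 0.0998 in edgeR) and was the 1 of the 3 with an unadjusted p under 0.05.

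The list of other genes taken to carry a TOP motif, which held translation factor genes and also noncoding genes such as Gas5, had changes spread around 0. Of 20 tested, 3 fell, 1 rose and 16 did not pass in edgeR, and the median log2 change was 0.0037. Over all tested genes, 5.13% were called lower and 4.86% higher. Gas5, a noncoding host of small nucleolar RNAs, fell by 0.43 ± 0.062 (SE) with adjusted p = 0.00335 in edgeR. The elongation factor gene Eef1g fell by 0.29 and Btf3, named after its value was seen, by 0.21, while the initiation factor gene Eif4b rose by 0.30 on the log2 scale (adjusted p = 0.0345 in edgeR). The difference between this list and the ribosomal protein genes was not tested.

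Genes of ribosome assembly and ribosomal RNA synthesis had longer transcripts than the members, with a median effective length of 2171 bases. Of 36 tested, 10 fell, 1 rose and 25 did not pass in edgeR, 30 were below 0, and the median log2 change was -0.22. Among all tested genes 5.13% were called lower and 4.86% higher. Nop2, a nucleolar RNA methyltransferase gene, was at 25.8, 27.6, 24.6 and 26.7 CPM in high fat A, B, F and G and 38.2, 39.99, 33.4 and 37.9 CPM in control I, J, L and M, without overlap. It fell by 0.51 ± 0.068 (SE) with adjusted p = 0.00231 in edgeR. The nucleolar protein genes Nop58 and Nolc1 fell by 0.47 and 0.30. Nhp2, part of the machinery that makes pseudouridine, rose by 0.35 (adjusted p = 0.0434 in edgeR) and was named after its value was seen.

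In the list of mTORC1 and other controls of TOP mRNAs, 3 of 23 rose, 1 fell and 19 did not pass in edgeR, with a median log2 change of 0.14. The share of all tested genes called was 4.86% higher and 5.13% lower. Mtor, the kinase itself, was at 565, 513, 631 and 572 CPM in high fat A, B, F and G and 388, 319.8, 359 and 462 CPM in control I, J, L and M. The diets did not overlap, and Mtor rose by 0.58 ± 0.10 (SE) on the log2 scale with adjusted p = 0.00851 in edgeR. Sesn2, an inhibitor of mTORC1 that senses leucine, rose by 0.65 and Deptor, another inhibitor, by 0.30, the latter named after its value was seen. Slc3a2, a subunit of amino acid transporters that feed mTORC1, fell by 0.35 (adjusted p = 0.0241 in edgeR). These are RNA levels, and the activity of the kinase was not measured.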

How the data were processed

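RNA of the renal cortex was sequenced in 8 libraries, 4 per diet, made from 1 ug of total RNA each. The submitters' processing notes name CASAVA 1.8.2, RSEM 1.2.9 and mm10. For each gene symbol the authors deposited an expected count, in which RSEM splits reads of similar genes by likelihood, and an FPKM value. In tables of their own comparison the authors deposited a fold, which is a ratio between the diets, and a score, the posterior probability that expression was equal. One of these tables adds FPKM by Ensembl gene. Which tool made them is not given in the sources used.

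Expected counts were rounded, Rn45s was removed, and edgeR 4.0.16 (R 4.3.3; filterByExpr, TMM, quasi-likelihood F test, diet as the only term) was fitted to all genes, with Benjamini-Hochberg adjustment over the 14711 tested. Standard errors are the absolute log2 change over the square root of F. Total counts per library limit precision most for members under 1 CPM. Deposited FPKM were rescaled to TMM-scaled library sizes without Rn45s, and the ratio of counts to FPKM gave effective lengths. Gene positions are GENCODE M21 bounds on GRCm38. The test was checked on simulated counts, drawn for each gene on its own. That check does not cover changes shared by many genes of a library, as the members showed. Alternatives were DESeq2 1.42.0, limma 3.58.1 (voom, and log2(FPKM + 0.1) or log2(FPKM + 1) for a mean of at least 0.5), other scalings, filters and thresholds, and fits without libraries; near-copy sums and rescaled FPKM in limma were added after seeing the data.

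Members, lists and tests were chosen with earlier results of these data known. Named members were all called ones, the 6 highest and 3 lowest by FPKM, the 4 highest and 4 lowest log2 changes, the stalk genes and each paralog with its parent; other genes were Fau, Gnb2l1 and up to 3 called genes per pathway list, with Btf3, Nhp2 and Deptor added after their values were seen. Results for some genes the rule names are not reported here. Rps27, Rpl26, Rpl30 and Rpl34 share reads with near copies.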

Additional observations from a re-analysis of the deposited data

Results flagged for a closer look

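Single libraries stood apart from the other 3 of their diet in 5 of 72 groups of 4 looked at by Dixon's test, which flags about 1 in 20 groups by chance. Of these, 2 were high values of a member in control J, the library with a Rn45s share of 50.3% where the other control libraries had 1.23% to 5.70%, itself one of the 5. Rpl41, the most abundant member per length, was at 516 CPM in control J and between 417 and 433 CPM in the other control libraries. Rps26 was at 123 CPM in control J against 101 to 105 CPM. The other 2 went in the low direction. Rps20 was at 137 CPM in control M against 155 to 158 CPM in the other control libraries, and Rps16 at 60.9 CPM in high fat A against 72.6 to 74.3 CPM in the other high fat libraries. Rps26 and Rps20 are among the called members, and Rpl41 and Rps16 are not. The part of the Rn45s share in the values of control J was not tested.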

How the results depend on the processing

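The members' median log2 change stayed below 0 in every fit run, from -0.22 to -0.12 in the count-based fits. No paired analysis was possible because the labels give no replicate numbers shared between the diets. The 16 calls became 29 with DESeq2 (6.02% of tested genes called lower), 7 of them with TMM from transcripts under 1500 bases, 8 with the length trend removed, 39 at an adjusted p under 0.1 (9.01%) and 0 at an adjusted p under 0.01 in edgeR (1.01%; 60 had an unadjusted p under 0.05). They ran from 1 to 33 without 1 library (2.15% to 5.2%), and were 0 with control J and high fat G left out (1.17%; 29 unadjusted). With limma on log2(FPKM + 0.1) as deposited, where Rn45s stays in the scaling, 0 members were called (0.205%; none unadjusted), 61 were below 0 and the median was -0.036, beside 0.14 over all genes, a difference of -0.18. With log2(FPKM + 1) the median was again -0.036 with 0 calls (0.243%), beside 0.11 over all genes, a difference of -0.14. All genes called numbered 739 to 1528 without 1 library, 417 with control J and high fat G left out, 91 and 99 with the FPKM fits, 2547 at an adjusted p under 0.1 and 330 under 0.01, against 1469. The translation and assembly lists, with 19 calls, had 7 to 17 without 1 library, 11 with the short-transcript factors, 4 with control J and high fat G left out, 0 and 0 with the FPKM fits, 30 at an adjusted p under 0.1 and 4 under 0.01. The mean level of members (the median over detected members of their mean over 8 libraries) was 249.9 FPKM as deposited and 284.7 rescaled. Some members with a small change switched sign, none of them called. With the short-transcript factors Rps27l went to 0.020 and Rpl22 to 0.014, and with the length trend removed Rps27l to 0.056. Without 1 library Rpl22 ran from -0.11 to 0.0038, Rps27l from -0.095 to 0.0058 and Rpl26 from -0.027 to 0.26. With near copies added Rpl26 was at -0.16. With log2(FPKM + 0.1) Rpl41 was at 0.035, Rps2 at 0.042, Rplp1 at 0.025, Rpl23a at 0.047, Rps27l at 0.12, Rpl3 at 0.055 and Rpl22 at 0.11. With log2(FPKM + 1) these were 0.035, 0.042, 0.025, 0.047, 0.11, 0.055 and 0.10. These FPKM values were as deposited, with Rn45s in the scaling. After rescaling to TMM-scaled library sizes without Rn45s, limma on log2(FPKM + 0.1) had 14 calls among members and 1392 among all genes. The members' median was then -0.19, and no named member changed sign. In edgeR with TMM factors, keeping Rn45s in the library sizes left 16 member calls, 1468 calls among all genes and a median of -0.19. The parts of Rn45s and of TMM scaling in the FPKM shifts were not tested apart. The cause of the other shifts was not tested either, and the fits that leave some libraries out also have fewer of them. Over the named members and other alternatives, 665 values kept direction and side of the threshold, 154 lost a call and 15 gained one.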
